A study of Danio rerio with 6 samples.

Results

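The integrated stress response is described here through 9 genes in regenerating zebrafish caudal fins. The genes atf4a, atf4b, ddit3, trib3, asns, chac1, ddit4, sesn2 and atf5b were taken by symbol from a table of 19822 genes, by a rule that uses no measured value, although earlier results of these data were known when they were chosen. All 9 were found, each under 1 identifier, and all 9 were among the 15806 genes that averaged a normalised count of at least 1 and were tested. RNA came from wild-type AB fish aged 3 to 12 months, collected 24 h after the fin was cut, as the regenerated tissue together with a ray segment of the stump. The control group had received an intraperitoneal injection of the solvent DMSO and the treated group Galloflavin, an inhibitor of lactate dehydrogenase, at 0.12 mg per g in DMSO. Fish of both groups regenerated at 33 °C, above the 28 °C of the colony. Both groups comprised 3 libraries of 10 pooled fins, and according to the labels every batch (B1, B2, B3) contributed 1 DMSO and 1 Galloflavin library. A pool averages over fish, so differences between single fish are not visible.

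In the integrated stress response, kinases that sense different stresses phosphorylate the initiation factor eIF2. Gcn2 senses uncharged tRNA, Perk senses unfolded protein in the endoplasmic reticulum (ER), Pkr senses double-stranded RNA, and Hri senses lack of haem and mitochondrial stress. Phosphorylated eIF2 slows translation in general but favours translation of the mRNA for the transcription factor Atf4, which then switches on genes for amino acid supply, redox balance, restraint of growth signalling and, under lasting stress, cell death. These roles are known mainly from mammalian cells. The regulation of Atf4 lies largely in translation, and the libraries measured RNA only, so neither phosphorylation of eIF2 nor Atf4 protein was observed.

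The libraries held 17712157 to 29596335 reads summed over genes, fewest in both B3 libraries. The members had between 471 reads (sesn2 in DMSO B3) and 19304 reads (atf4a in DMSO B2) per library, so that counting alone gives an error of 0.72% to 4.61% of a value. Basal epidermis markers (6 of 6 found) summed to 54596 to 73587 normalised counts with DMSO and 56158 to 71580 with Galloflavin. Of these sums, krt5 alone made up 51797 to 70772 with DMSO and 52152 to 67989 with Galloflavin. By log2 fold change, 4 of the 6 lay above 0 and 2 below, with a median of 0.20. They ran from krtt1c19e at -0.52 ± 0.74 to cldni at 0.45 ± 0.13, with krt5 at -0.11 ± 0.23. Galloflavin was higher in all 3 batches for 4 of the 6, against 17.0% of all genes, so the krt5-dominated sums do not show the other markers. Skeletal muscle markers (2 of 5 found) summed to at most 11.9 in any library. Neutrophil markers (7 of 8 found, none at 0) summed to 293 to 318 with DMSO and 320 to 448 with Galloflavin. The gene nccrp1 alone gave 182 to 223 of this sum with DMSO and 204 to 312 with Galloflavin. Levels of mpx were 8.47 to 26.6 and 13.2 to 15.2. Of the 6 tested, 5 lay above 0 in log2 fold change and 1 below, with mpx at 0.05 ± 0.37. Macrophage markers (9 of 9 found, none at 0) summed to 296 to 313 and 311 to 320. The near-equal sums hide opposite directions, with 4 of the 9 above 0 in log2 fold change and 5 below. They ran from mfap4.1 at 0.95 ± 0.21 (DESeq2 adjusted p = 0.0139) to c1qa at -0.79 ± 0.22 (DESeq2 adjusted p = 0.190). Erythrocyte markers (6 of 6 found, none at 0) summed to 42.3 to 139 with DMSO and 50.3 to 106 with Galloflavin, highest in DMSO B1. The part of these cell types in the values below was not tested. In such bulk tissue, fewer cells of a type and less RNA per cell cannot be told apart.

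The comparison of Galloflavin with DMSO asked whether genes of this stress response differ in the early regenerate after Galloflavin injection. Activity of lactate dehydrogenase was not observed in these RNA libraries. Only ddit4 differed more than 1.5-fold between the group means, at 3.83 times the DMSO mean with Galloflavin, and its level varied widely among the treated pools. The transcription factor gene atf5b was 1.25 times and atf4b 1.09 times the DMSO mean, with no overlap between the groups. Counting ddit4, every Galloflavin library lay above every DMSO library for 3 of 9 members and for 6.97% of all genes. The other 6 genes overlapped between the groups, with asns and sesn2 at lower means under Galloflavin and atf4a, ddit3, trib3 and chac1 at higher means. None of the 9 passed limma's test with Benjamini-Hochberg adjustment over all genes, and neither did any other gene, so that the share called was 0% (lowest adjusted p = 0.253).

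**Figure D1:**
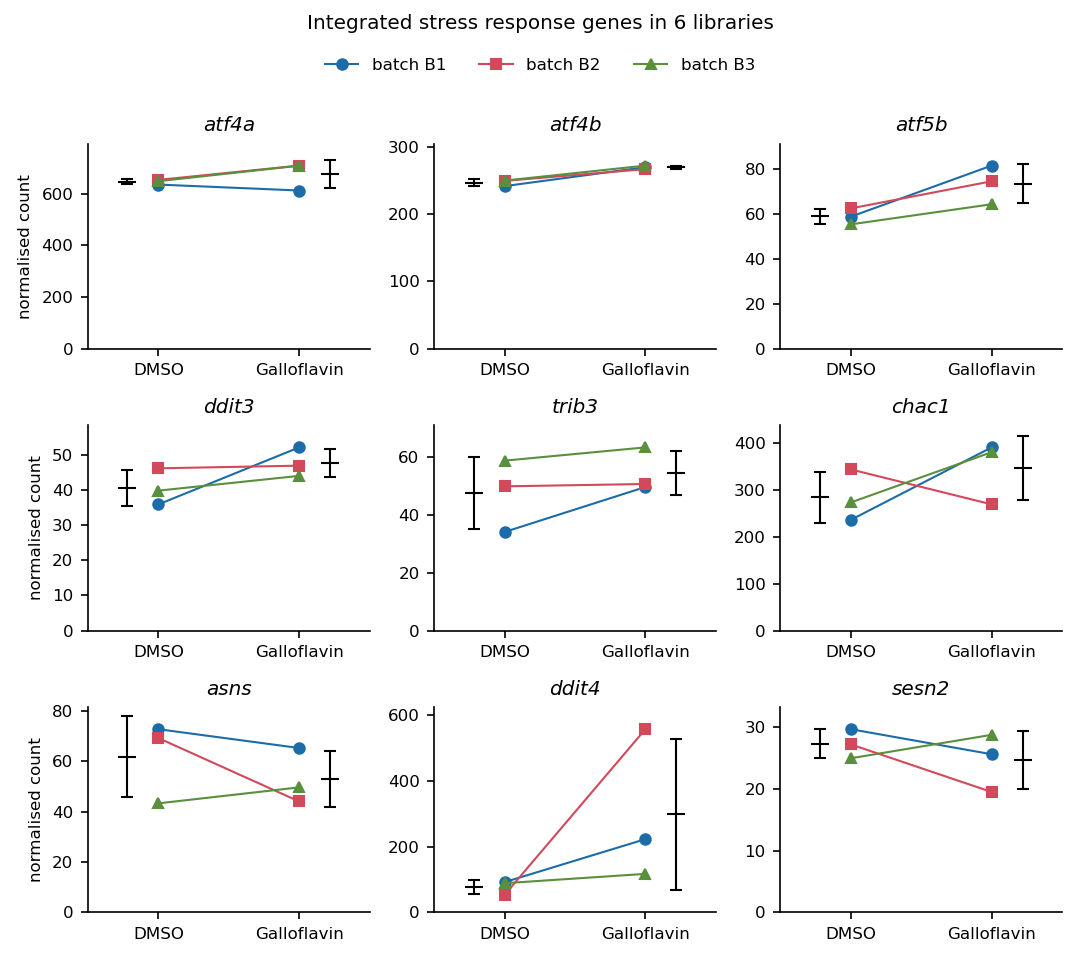
Normalised counts of the 9 genes (y axis, from 0) in DMSO and Galloflavin libraries (x axis). Lines join the libraries of a batch, and black bars give mean and SD of 3 libraries. In ddit4 the Galloflavin libraries lie above all DMSO libraries but spread from 117 to 557.

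The genes for Atf4 itself had the smallest fold changes of the 9 members. The gene atf4a (ENSDARG00000111939) was measured at 635, 653 and 648 normalised counts under DMSO (here and below in the order B1, B2, B3) and at 612, 709 and 708 under Galloflavin. Galloflavin B1 was the lowest of all 6 libraries and the other Galloflavin libraries were the highest, so the groups overlapped. The log2 fold change was 0.06 ± 0.09 (SE, limma adjusted p = 0.919), with a 95% interval of 0.897-fold to 1.22-fold, and it was -0.07 with quantile normalization. Leaving out 1 library gave 0.03 (without Galloflavin B2 or B3) to 0.13 (without Galloflavin B1).

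The second copy, atf4b (ENSDARG00000038141), had 241, 249 and 249.5 normalised counts with DMSO and 269, 267 and 272 with Galloflavin. The libraries within a group were close together, and every Galloflavin library lay above every DMSO library. The log2 fold change was 0.13 ± 0.07 (limma adjusted p = 0.753), and the exact permutation p was 0.1, the smallest that 3 libraries against 3 allow. With quantile normalization the log2 fold change was 0.04. Within the batches the difference was 0.16 (B1), 0.10 (B2) and 0.12 (B3) on the log2 scale. Near-identical stretches of atf4a and atf4b could share reads, and the treatment of such reads in counting is unknown.

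The gene atf5b (ENSDARG00000077785) encodes a relative of Atf4 whose mammalian counterpart is translated under eIF2 phosphorylation and acts in the mitochondrial stress response. Its normalised counts were 58.9, 62.6 and 55.5 in the DMSO libraries and 81.7, 74.7 and 64.5 in the Galloflavin libraries. The highest DMSO library lay just below the lowest Galloflavin library. On the log2 scale the groups differed by 0.31 ± 0.11 (limma adjusted p = 0.649; exact permutation p = 0.1), with a 95% interval of 1.03-fold to 1.49-fold before any adjustment. In each batch the Galloflavin library was the higher, by 0.46, 0.25 and 0.21 on the log2 scale.

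Chop, the product of ddit3 (ENSDARG00000059836), pairs with other bZIP factors and promotes cell death under prolonged ER stress. The DMSO libraries had 35.9, 46.1 and 39.8 normalised counts of ddit3 and the Galloflavin libraries 52.0, 46.9 and 44.0. The Galloflavin library was the higher in every batch, but the difference was 0.53 in B1, 0.02 in B2 and 0.14 in B3, and DMSO B2 exceeded Galloflavin B3. Over all libraries the log2 fold change was 0.23 ± 0.12 (limma adjusted p = 0.720), and it was 0.15 without DMSO B1 and 0.08 without both B1 libraries.

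The pseudokinase gene trib3 (ENSDARG00000016200), an Atf4 and Chop target whose mammalian product binds Akt and restrains Atf4, had 34.2, 50.0 and 58.9 normalised counts with DMSO and 49.8, 50.8 and 63.5 with Galloflavin. Both B1 libraries were the lowest and both B3 libraries the highest. However, Galloflavin B1, DMSO B2 and Galloflavin B2 differed by less than their counting errors of 2.60% to 2.78% would resolve. Only DMSO B1 set B1 apart from B2, and the limma F-test among batches gave an adjusted p of 0.342. The log2 fold change of Galloflavin over DMSO was 0.22 ± 0.20 (limma adjusted p = 0.856), and it was 0.002 without DMSO B1 and 0.39 without DMSO B3. With batch as a block its standard error was 0.12 (adjusted p = 0.586).

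Glutathione is degraded by the enzyme that chac1 (ENSDARG00000070426) encodes. The normalised counts of chac1 were 236, 344 and 274 with DMSO and 391, 269 and 381 with Galloflavin. The B1 and B3 pairs differed upwards, by 0.72 and 0.48 on the log2 scale, and the B2 pair downwards, by -0.35. Its log2 fold change was 0.28 ± 0.19 over all libraries (limma adjusted p = 0.780), 0.60 without both B2 libraries and 0.06 without both B1 libraries. Leaving out 1 library gave 0.16 (without DMSO B1) to 0.46 (without Galloflavin B2).

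The amino acid arm is represented by asns (ENSDARG00000016375), asparagine synthetase, a target of Atf4 when amino acids run short. Its normalised counts were 72.7, 69.1 and 43.3 under DMSO and 65.2, 44.0 and 49.6 under Galloflavin. The values of the groups were interleaved, with the lowest level in DMSO B3 and the next lowest in Galloflavin B2. The means differed by a log2 fold change of -0.20 ± 0.23 (limma adjusted p = 0.886), and without both B2 libraries it was 0.02. Leaving out 1 library gave -0.43 (without DMSO B3) to -0.07 (without DMSO B1).

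Sestrin 2, the product of sesn2 (ENSDARG00000070012), is a leucine sensor that restrains the growth kinase complex mTORC1 and is also a p53 target in mammals. Normalised counts were 29.7, 27.2 and 25.0 with DMSO and 25.6, 19.5 and 28.8 with Galloflavin. The lowest value stood in Galloflavin B2 and the groups overlapped. This amounted to a log2 fold change of -0.16 ± 0.15 (limma adjusted p = 0.863), -0.0038 without Galloflavin B2 and -0.27 without Galloflavin B3.

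The largest difference was that of ddit4 (ENSDARG00000037618), which encodes Redd1, an inhibitor of mTORC1 that Atf4, hypoxia and glucocorticoids induce in mammals. Its normalised counts were 92.2, 53.5 and 88.9 under DMSO and 223, 557 and 117 under Galloflavin, from 1582 reads in DMSO B2 to 14230 reads in Galloflavin B2. All Galloflavin libraries were above all DMSO libraries, and Galloflavin B2 was 6.05 times the median of the other 5. The means were 78.2 ± 21.4 (SD, n = 3) and 299 ± 230 (SD, n = 3). This gave a log2 fold change of 1.67 ± 0.52, with a 95% interval of 1.36-fold to 7.46-fold before any adjustment. Among 15806 genes ddit4 ranked 7 from the top by log2 fold change but 370 by unadjusted limma p. It did not pass (limma adjusted p = 0.602; exact permutation p = 0.1). On the recovered reads the adjusted p was 0.610 with edgeR and 0.243 with DESeq2. Without Galloflavin B2 the log2 fold change was 1.08, and without both B2 libraries it was 0.83.

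**Figure D2:**
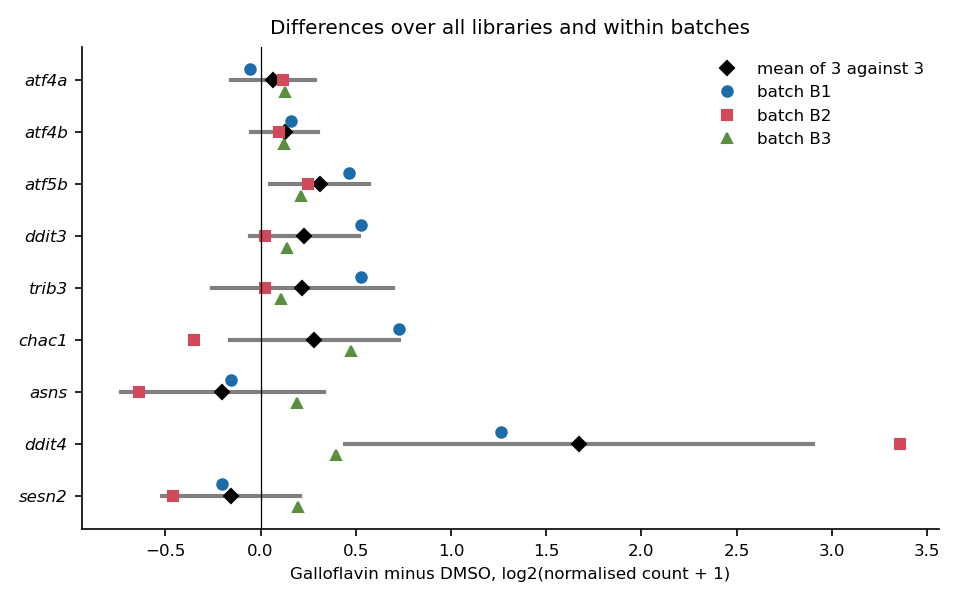
Difference between Galloflavin and DMSO on the log2(normalised count + 1) scale (x axis) for each gene (y axis). Diamonds give the difference of the means of 3 libraries with its 95% limma interval as a grey bar, and coloured symbols the difference within each batch. The interval of ddit4 is the widest, and chac1, asns, sesn2 and atf4a have batches on both sides of 0.

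Across the members, 7 of 9 log2 fold changes were above 0, with a median of 0.22, against 49.1% above 0 and a median of -0.004 over all genes tested. At an unadjusted limma p under 0.05 stood 2 members, ddit4 and atf5b, where the share over all genes was 7.21%. DESeq2 on the recovered reads called 0 of the 9 and 0.525% of all genes, and edgeR called no gene. The groups did not overlap, with Galloflavin higher, for 3 of 9 members and for 6.97% of all genes. For atf5b this rests on a narrow gap between DMSO B2 (62.6) and Galloflavin B3 (64.5). Counting errors of these values were 2.3% and 2.9%, so the gap is not settled. Galloflavin was higher in all 3 batches for 5 members (atf4b, atf5b, ddit3, trib3 and ddit4) and for 17.0% of all genes. It was lower in all 3 batches for 0 members and for 16.4% of all genes. For ddit3 and trib3 the B2 ratio was only 1.016, less than the counting error of 2.60% to 2.89% per library. Their direction in B2 is therefore not settled. Given how the genes were chosen, these shares only describe them.

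The differences were not of 1 size in the batches. The median over the 9 genes of Galloflavin minus DMSO was 0.46 in B1, 0.02 in B2 and 0.19 in B3 on the log2 scale, where the median over all genes tested was 0.01, -0.02 and 0.0007. DMSO B1 held the lowest value of 4 members (atf4b, ddit3, trib3 and chac1) and the highest of 2 (asns and sesn2). Galloflavin B1 held the highest value of ddit3, chac1 and atf5b and the lowest of atf4a. In Galloflavin B2 the highest values were those of atf4a and ddit4 and the lowest that of sesn2.

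**Figure D3:**
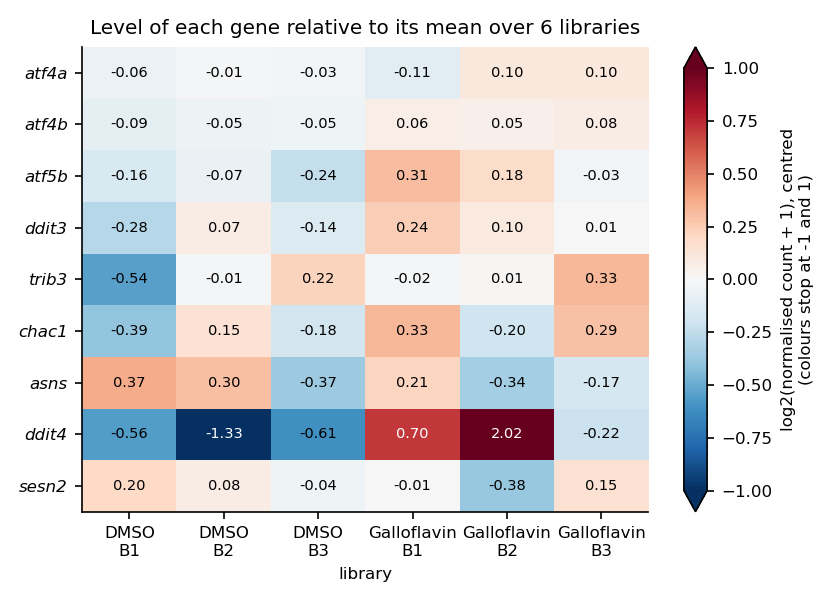
Level of each gene (rows) in each library (columns) relative to its mean over the 6 libraries, in log2 units, with colours ending at -1 and 1. In ddit4 the cells run from -1.33 in DMSO B2 to 2.02 in Galloflavin B2, and in atf4a and atf4b they run from -0.11 to 0.10.

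Levels were also compared among the 3 batches with group in the model, in limma's F-test over all genes. None of the 9 members passed, and 0.0316% of all genes did (5 of 15806). The lowest adjusted p among the members was 0.342 for trib3, with batch means of 42.0, 50.4 and 61.2 normalised counts in B1, B2 and B3. For asns, whose batch means were 68.9, 56.6 and 46.4, it was 0.451. The order of the batch means was opposite in these genes, both known as Atf4 targets, but neither gene passed. For asns the lowest library was B3 with DMSO (43.3) and B2 with Galloflavin (44.0). Whether the batches differ in Atf4 activity was not tested. For atf4b the batch means lay between 255 and 261 (adjusted p = 0.984). At an unadjusted p under 0.05 in this F-test stood 1 of 9 members, trib3, and 1995 of all 15806 genes.

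The genes upstream of Atf4 were examined as a list of eIF2 kinases, subunits of eIF2 and of its exchange factor eIF2B, and the phosphatase subunits that reset the pathway. Of 19 genes, 18 were tested, 0 passed in either direction, 9 lay above 0 and 9 below, and the median log2 fold change was 0.01. The gene for Perk, eif2ak3, was named for the lowest unadjusted p in this list. It had 38.5, 39.8 and 33.3 normalised counts with DMSO and 29.2, 24.1 and 28.9 with Galloflavin (log2 fold change -0.43 ± 0.12, limma adjusted p = 0.602). The gene for Gcn2, eif2ak4, had 26.5, 26.4 and 27.2 with DMSO and 28.4, 34.4 and 32.3 with Galloflavin (0.23 ± 0.10, limma adjusted p = 0.690). The mitochondrial protease gene oma1, which relays mitochondrial stress to Hri in mammals, was at -0.26 ± 0.13. The phosphatase subunit gene ppp1r15a, itself induced by this response in mammals and named here after its values were seen, had 34.7 to 37.9 normalised counts with DMSO. With Galloflavin it had 34.7, 263 and 40.5 in B1, B2 and B3, so that only Galloflavin B2 stood apart. Its log2 fold change was 0.98 ± 0.69 (limma adjusted p = 0.798).

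Factors that pair with Atf4 or share its targets came next. Of 17 such genes 0 passed, 10 lay above 0 and 7 below, and the median was 0.07. The partner gene cebpg, likewise named for the lowest unadjusted p in its list, had 73.6, 69.5 and 89.9 normalised counts with DMSO. With Galloflavin it had 91.5, 96.5 and 114 (0.37 ± 0.13, limma adjusted p = 0.644). The antioxidant regulator gene nfe2l2a was at 0.41 ± 0.16 and cebpb at 0.64 ± 0.29. Among close relatives of the members, of which 6 of 8 were found, 4 lay above 0 and 0 passed. Of these, chac2, which also encodes a glutathione-degrading enzyme, had 10.5, 10.3 and 12.8 normalised counts with DMSO and 14.2, 14.1 and 19.4 with Galloflavin (0.46 ± 0.16, limma adjusted p = 0.644). The other relatives named by the rule were sesn1 (0.43 ± 0.23) and trib1 (0.18 ± 0.19).

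Other Atf4 targets serve amino acid transport, serine and proline synthesis and tRNA charging or encode secreted factors. Of 33 genes, 30 were tested, 0 passed, 13 lay above 0 and 17 below, and the median was -0.04. Galloflavin was higher in all 3 batches for 1 of the 30 (17.0% of all genes) and lower for 6 (16.4% of all genes). DMSO B2 held the highest value of 15, and the share of all genes highest there was not counted. The secreted stanniocalcin gene stc2a (log2 fold change -0.67 ± 0.29), the alanine aminotransferase gene gpt2 (-0.50 ± 0.22) and the translation inhibitor gene eif4ebp1 (-0.15 ± 0.10) had the lowest unadjusted p in this list, all at lower means with Galloflavin (limma adjusted p = 0.690, 0.690 and 0.763). Genes of the ER unfolded protein response had a median of -0.002 (12 of 25 above 0, 0 passed). Those of the mitochondrial one had a median of 0.02 (4 of 7 above 0, 0 passed). The medians within batches differed in sign. They were -0.43 (B1), 0.31 (B2) and 0.05 (B3) in the ER list. For the mitochondrial list the batch medians were -0.25, 0.18 and 0.008. In the ER list the genes with the lowest unadjusted p were atf6b (0.17 ± 0.10), derl3 (0.43 ± 0.26) and the stress sensor gene ern1 (-0.18 ± 0.12). In the mitochondrial list clpxa stood at 0.13 ± 0.11, clpxb at 0.11 ± 0.115 and clpp at 0.06 ± 0.12.

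**Figure D4:**
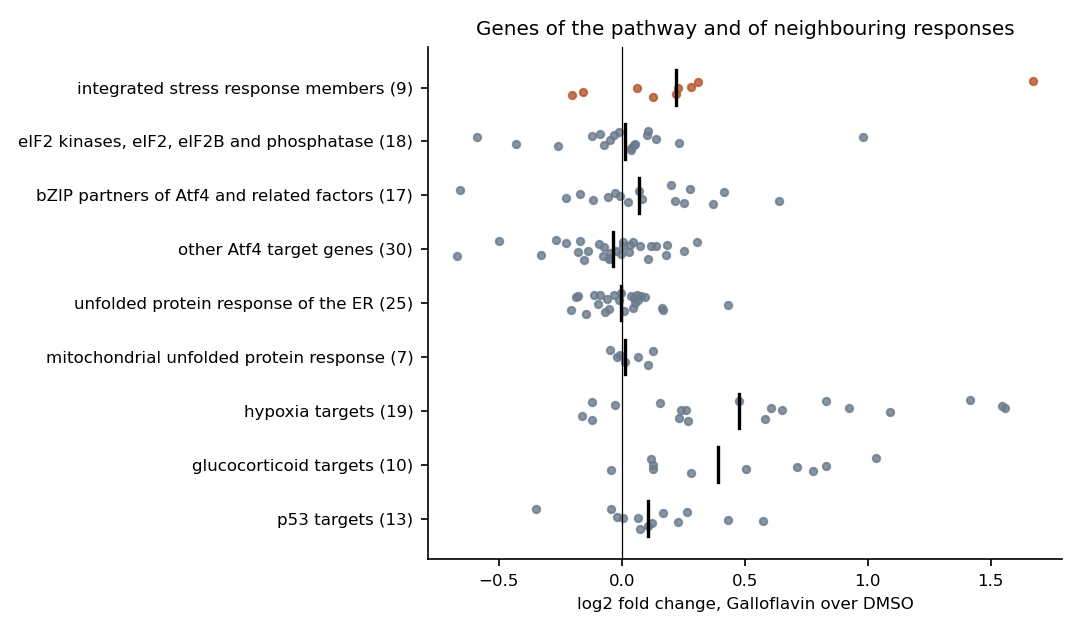
Log2 fold change of Galloflavin over DMSO (x axis) for every tested gene of each list (rows, number of genes in brackets), with the list median as a black bar. The member ddit4 stands at 1.67, apart from the other 8, and the medians of the eIF2, ER and Atf4 target lists are 0.01, -0.002 and -0.04. Behind the ER median lie batch medians of -0.43 (B1), 0.31 (B2) and 0.05 (B3).

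Because ddit4 and sesn2 are known targets of other pathways, genes of those pathways were set beside them. Hypoxia targets (20 of 22 found, 19 tested, 0 passed) had a median log2 fold change of 0.48, with batch medians of 0.10, 1.23 and 0.08. In 13 of the 19 the top library was Galloflavin B2, and the share of all genes highest there was not counted. The summed level of the list was 932 to 1386 normalised counts with DMSO and 1483, 4087 and 968 with Galloflavin B1, B2 and B3. In Galloflavin B2 the largest parts of this sum were ndrg1a (963), pgk1 (775) and ldha (728). In the B2 pair bnip3la, pfkfb4b, igfbp1a, hk2 and pdk1 were lower with Galloflavin and the other tested genes of the list higher. The gene bhlhe40 stood at 0.92 ± 0.38, pgk1 at 0.65 ± 0.38 and adma at 0.58 ± 0.36. The pair of libraries in which ddit4 differed most, B2, was also the pair in which hypoxia targets differed most. In B1 ddit4 differed by 1.265 and the hypoxia median by 0.10, and in B3 the values were 0.40 and 0.08. Relative to the mean of each gene, the median level of hypoxia targets was 0.16 in DMSO B1, -0.36 in DMSO B2 and -0.38 in DMSO B3.

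Glucocorticoid targets (10 of 10 found, 0 passed) had a median of 0.39, with 9 of 10 above 0 and batch medians of 0.99, 0.15 and 0.07. The receptor cochaperone gene fkbp5 had 262, 503 and 483 normalised counts with DMSO and 778, 796 and 884 with Galloflavin. Its log2 fold change was 1.03 ± 0.24 (limma adjusted p = 0.602, DESeq2 adjusted p = 0.0235). The transcription factor gene klf9 stood at 0.83 ± 0.29 and tsc22d3 at 0.50 ± 0.21. DMSO B1 had the lowest median level of these genes, at -0.78 relative to their means, and 8 of the 10 were lowest there. The share of all genes lowest in DMSO B1 was not counted. Among the members, DMSO B1 was the lowest library for atf4b, ddit3, trib3 and chac1 but the highest for sesn2 and asns, and for ddit4 the highest DMSO library. Genes listed as p53 targets (13 of 14 found, 0 passed) had a median of 0.11. The 3 with the lowest unadjusted limma p were tnfrsf1a (0.23 ± 0.09), sesn1 (0.43 ± 0.23) and cdkn1a (-0.35 ± 0.21). Whether tnfrsf1a is a p53 target in the fin was not checked. The part of hypoxia, glucocorticoid or p53 signalling in the levels of ddit4 and sesn2 was not tested.

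**Figure D5:**
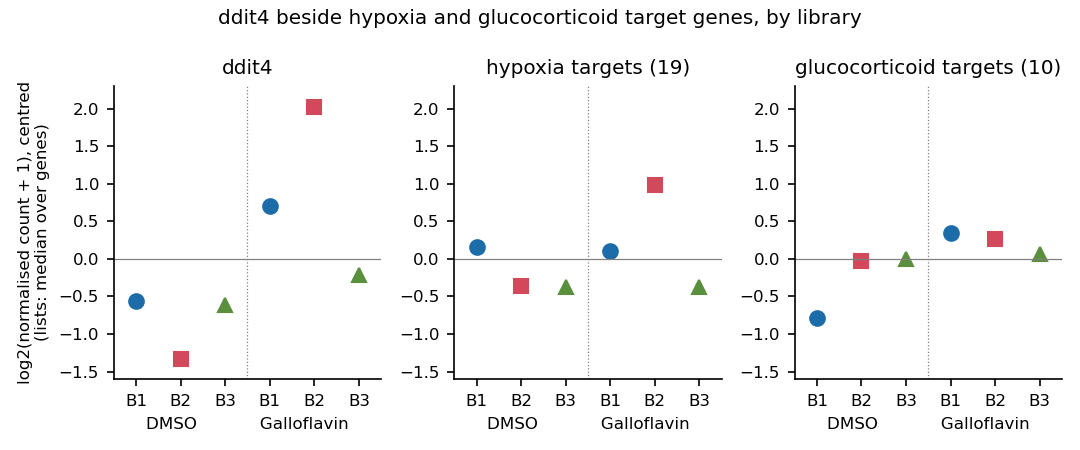
Level of ddit4 and median level of hypoxia and glucocorticoid target genes (y axis, log2 units relative to the mean of each gene) in each library (x axis). Galloflavin B2 is the highest library for ddit4 (2.02) and for hypoxia targets (0.98), and DMSO B1 the lowest for glucocorticoid targets (-0.78).

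The genes whose levels over the 6 libraries were most like those of each member were found by the root mean square difference of log2 levels centred per gene. The candidates were 10519 named genes with a mean of at least 5. For ddit4 the most alike was mknk2b, which had 231, 109 and 164 normalised counts with DMSO and 244, 918 and 198 with Galloflavin, at a difference of 0.36. For trib3 it was alas1, with 120, 167 and 193 normalised counts with DMSO and 154, 179 and 231 with Galloflavin, at 0.077. The others were sh3gl1a for atf4a (0.019), exoc1 for atf4b (0.021), pla2g7 for atf5b (0.021) and ly75 for ddit3 (0.034). For chac1, asns and sesn2 they were pdpk1a (0.10), parp142.2 (0.057) and eefsec (0.025). Among the members themselves atf4a and atf4b were closest, at 0.078, and ddit3 and atf5b next, at 0.10, while asns and ddit4 were the farthest apart, at 1.25. This measure depends on how much each gene varies. The SD of the centred levels was 0.078 for atf4a, 0.065 for atf4b and 1.09 for ddit4. The closeness of atf4a and atf4b therefore shows 2 nearly flat genes, not a shared pattern. With 6 libraries and so many candidates a close match is a description only.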

How the data were processed

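Poly(A) RNA libraries were made with a stranded kit, per the labels' protocols. Reads were aligned with STAR 2.7.10a to GRCz11, per the submitters' processing notes, while how reads were counted and scaled is not given in the sources used. The signal the authors deposited is a normalised count per gene, 1 column per library. Columns consist of multiples of 1 step, and 100% of values gave whole reads to within 0.01. Tests ran in limma 3.58.1 (R 4.3.3) on log2(value + 1) of the deposited values (mean trend, two-sided, adjusted p under 0.05, mean of at least 1, 15806 genes). Fold changes understate those of low genes. edgeR 4.0.16 and DESeq2 1.42.0 were run on the recovered reads. Two-sided exact permutation tests enumerated the 20 ways to assign 6 libraries.

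The members and lists were chosen with earlier results of these data known. List genes named by rule are the 3 with the lowest unadjusted p. Other list genes and markers, among them ppp1r15a, ndrg1a, ldha, hsp90b1, hspa5, syvn1, krt5 and mpx, were named outside this rule. Symbols missing from the table were taken from a table of zebrafish gene names (1485 of 2175). Promoter motifs were not analysed here. Whether counting used strand is unknown, which leaves overlapping, antisense and duplicated genes uncertain. Batch, taken from the labels, pairs the libraries; correlations of the deviations from group means were 0.10 (B1), 0.08 (B2) and 0.49 (B3) within batches and -0.389 to 0.377 across them. No libraries repeated each other (chi-square per degree of freedom 11.1 to 58.0). The 3 pools per group are the replicates, and p-values cover the spread between them.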

Additional observations from a re-analysis of the deposited data

How the results depend on the processing

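The count of 0 genes called between Galloflavin and DMSO stayed at 0 with batch as a replicate block (1582 genes at an unadjusted p under 0.05, against 1139 without it), with edgeR, with other pseudocounts, filters and scalings and without each library. DESeq2 called 83 genes, or 146 with the replicate block, and without both B2 libraries limma called 1. No member was called in any of these fits. The block changed no call of a member, with adjusted p of 0.406 to 0.833. Among batches, the 5 genes called became 1 with a pseudocount of 5 or quantile normalization, 8 with no filter, and 0 with a minimum mean of 5 or edgeR. Leaving out each library gave 0 (DMSO B3, Galloflavin B2 or Galloflavin B3) to 301 (DMSO B1), with 51 without DMSO B2 and 214 without Galloflavin B1. The sign of 7 members held in every alternative. For trib3 it rested on 0.002 ± 0.15 without DMSO B1. For sesn2 it rested on -0.0038 ± 0.12 without Galloflavin B2 and on -0.0040 without both B2 libraries. In these fits the direction of trib3 and sesn2 is not settled. The sign reversed for atf4a with quantile normalization (-0.066) and for asns without both B2 libraries (0.019). The log2 fold change of ddit4 ran from 0.83 (without both B2 libraries) to 2.31 (without both B3 libraries). The cause of these changes was not tested. With 3 libraries per group, differences as small as that of atf4b were not detectable beyond the spread that limma assigns to genes of its level.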

Other observations

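The summed level of genes of the ER unfolded protein response, the arm of stress signalling that Perk belongs to, was spread widely among the treated pools. Summed over 25 genes, their level was 4078, 3373 and 4804 normalised counts under DMSO (B1, B2, B3) and 2514, 5804 and 4665 under Galloflavin. The genes hsp90b1 and hspa5 made the largest parts of this sum in every library. Not every gene of the list varied so, and syvn1 had 44.0 to 52.0 normalised counts over all libraries. The top library was Galloflavin B2 for 11 of the 25 and the bottom library Galloflavin B1 for 18. The shares of all genes with these top and bottom libraries were not counted. The ER chaperone gene hsp90b1 was measured at 916, 699 and 1130 normalised counts under DMSO and 439, 1712 and 1070 under Galloflavin. The chaperone gene hspa5 was measured at 863, 690.1 and 1129 under DMSO and 398, 1101 and 1056 under Galloflavin. In Galloflavin B1, where both were lowest, ddit3, chac1 and atf5b had their highest levels but atf4a its lowest. The other members were neither highest nor lowest there. Both chaperone genes were picked out after seeing their values, and no explanation was tested.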
